A study of Mus musculus with 2 samples.

Results

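*Terb1*, *Terb2*, *Majin*, *Kash5*, *Sun1* and *Spdya* encode the proteins that tie chromosome ends to the nuclear envelope in meiotic prophase. The 6 genes were taken by name, as members of this complex and its regulator, with earlier results of these data known. All 6 were among the 42422 genes of the count table, and all 6 were among the 15252 genes that passed the filter on low counts. The libraries were made from sorted germ cells of the foetal mouse gonad and numbered 40, 4 for each of 10 groups. Every embryo came from an *Oct4*-eGFP male on a 129svJT2 background crossed with a Swiss female, and the labels call the genotype WT. XX or XY gonads with their mesonephros were collected at E12.5 and were either used at once (XX 0 h, XY 0 h) or cultured. Culture lasted 24 h or 72 h, for XX gonads in DMSO, the solvent of the drugs, and for XY gonads in DMSO, in BGJ398 at 500 nM, which blocks FGF receptors (FGFRi), or in PD0325901 at 500 nM, which blocks MEK1/2 (MEKi). The mesonephros was taken off before sorting, several gonads were pooled in each sample, and GFP-positive cells were taken by fluorescent activated cell sorting. No XX gonad received an inhibitor.

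In meiotic prophase, telomeres leave the nuclear interior, attach to the inner nuclear membrane and are pulled along it, which helps homologous chromosomes find each other. TERB1 binds the telomere protein TRF1, TERB2 bridges TERB1 and MAJIN, and MAJIN is the membrane-anchored subunit. SUN1 spans the inner membrane and KASH5 the outer membrane, and KASH5 recruits the dynein motor that supplies the pulling force. Speedy A, the product of *Spdya*, is a cyclin-like activator that brings CDK2 to telomeres. In the mouse, ovarian germ cells enter meiosis in foetal life, whereas testicular germ cells stop dividing and enter meiosis only after birth.

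Values are CPM, counts scaled to equal library totals, where 1 count is a molecule primed at its poly(A) tail, so that counts were not divided by transcript length and levels were compared within a gene. Each group is given by the CPM of its 4 libraries from lowest to highest. A gene was called where limma gave an FDR under 0.05 against a 1.5-fold change. Log2 fold changes are the model's, with the standard error (SE) and, where given, the 95% confidence interval. The libraries had 1178953 to 5199153 counts each (median 2135128.5). The 5 germ cell markers, *Ddx4*, *Dazl*, *Pou5f1*, *Dppa3* and *Mael*, were present in every group and took 0.210% to 0.495% of the counts of a library. Markers of Sertoli and supporting cells took 0.00755% at most, interstitial and steroidogenic cells 0.00734%, endothelial cells 0.00226%, blood cells 0.0464% and mesonephros 0.0277%. The mesonephros sum rested mostly on 1 gene, *Lhx1* (82.1% to 99.3% of it) in 8 of 10 groups and *Pax8* in XY 72 h DMSO (65.1%) and FGFRi (72.8%), while *Pax2* had at most 4 counts in a group, so it is the level of these genes rather than a share of cells. The other sums also hold genes that could move in opposite directions, so they too are levels of genes rather than shares of cells. Fewer cells of a kind and less RNA per cell cannot be told apart in sorted bulk samples. A replicate is a pool of gonads, and the labels do not say whether pools shared litters.

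Library preparation used 2 pools, each of 20 libraries. XX and XY 0 h, XX and XY 24 h DMSO and XY 24 h MEKi were in pool 1, and XY 24 h FGFRi and every 72 h group in pool 2. Pool and time cannot be told apart in a comparison of 72 h DMSO with 0 h or 24 h, nor pool and drug in 24 h FGFRi against DMSO. In addition, 16 pool 1 libraries carried the same sample index as a pool 2 library. From Y-linked counts in the XX 24 h libraries, whose index partners were XY, the share of a partner's counts found in the pool 1 library was estimated as 3.25%. Each comparison was repeated after that share was subtracted, and the value is given beside a result wherever a call was lost.

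The genes lie on different chromosomes (GRCm39, GENCODE M39). *Terb1* (ENSMUSG00000052616) is on the minus strand of chromosome 8 from 105173351 to 105236545, and *Kash5* (ENSMUSG00000038292, older symbol Ccdc155) on the minus strand of chromosome 7 from 44831699 to 44854504. On the plus strand are *Terb2* (ENSMUSG00000027229; chromosome 2, 122016728 to 122052785), *Majin* (ENSMUSG00000024786; chromosome 19, 6234367 to 6274260), *Sun1* (ENSMUSG00000036817; chromosome 5, 139185970 to 139235606) and *Spdya* (ENSMUSG00000052525; chromosome 17, 71859027 to 71896534). Exons of *Spdya* overlap those of *Trmt61b* on the opposite strand, which had 174 counts in all libraries against 3707 for *Spdya*. They also overlap *Mettl4-ps1* on the same strand, for which no counts were used here, and strand cannot tell its reads from those of *Spdya*, whose level is uncertain to that extent. *Terb2*, *Kash5* and *Sun1* overlap an annotated gene on the opposite strand, which the authors' strand-specific counting code keeps apart.

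Promoters are shown because 5 of the members rose together in XX germ cells, as described next. RefSeq promoters (GRCm38.p6) were matched for 4 of the 6 genes, *Terb1*, *Spdya*, *Kash5* and *Sun1*. The 250 bases before each start are printed 5′ to 3′ on the strand of the gene, with matches to TCCCGC, the core of the site read by E2F proteins, in capitals.

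Terb1, chr8:104509888-104510137, minus strand: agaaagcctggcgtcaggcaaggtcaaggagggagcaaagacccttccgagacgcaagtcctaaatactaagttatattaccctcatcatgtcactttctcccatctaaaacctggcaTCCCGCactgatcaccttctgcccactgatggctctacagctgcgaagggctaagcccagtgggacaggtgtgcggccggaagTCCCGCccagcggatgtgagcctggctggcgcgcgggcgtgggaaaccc

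Spdya, chr17:71551811-71552060, plus strand: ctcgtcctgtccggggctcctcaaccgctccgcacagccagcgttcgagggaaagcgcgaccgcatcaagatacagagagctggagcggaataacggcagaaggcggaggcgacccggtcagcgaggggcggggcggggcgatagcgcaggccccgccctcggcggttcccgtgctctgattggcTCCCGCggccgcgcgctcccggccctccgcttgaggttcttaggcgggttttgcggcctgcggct

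Kash5, chr7:45204893-45205142, minus strand: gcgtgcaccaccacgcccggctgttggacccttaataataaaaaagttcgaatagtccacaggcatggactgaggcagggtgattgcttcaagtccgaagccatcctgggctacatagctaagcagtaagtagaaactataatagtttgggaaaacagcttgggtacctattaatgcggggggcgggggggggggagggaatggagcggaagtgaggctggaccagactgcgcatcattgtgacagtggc

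Sun1, chr5:139200387-139200636, plus strand: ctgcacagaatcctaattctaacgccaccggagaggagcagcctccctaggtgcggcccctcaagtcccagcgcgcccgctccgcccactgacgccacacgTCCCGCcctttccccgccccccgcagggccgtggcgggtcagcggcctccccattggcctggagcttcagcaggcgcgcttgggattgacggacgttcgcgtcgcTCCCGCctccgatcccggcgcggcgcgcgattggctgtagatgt

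Motifs were sought on both strands from 250 bases before to 50 bases after the start, namely CNCCTCAG, which the meiotic initiators STRA8 and MEIOSIN are known to bind, the E-box CACGTG and TCCCGC. No match overlapped another. TCCCGC occurred at -132 and -49 in *Terb1*, at -65 in *Spdya* and at -149 and -44 in *Sun1*, and in 20.0% of all 32841 RefSeq promoters. CNCCTCAG was matched on the reverse strand at 35 bases after the start of *Spdya* and 42 after the start of *Sun1*, and in 7.94% of all promoters. CACGTG was in none of the 4 windows and in 7.15% of all promoters. Another RefSeq promoter of *Sun1*, at a later start, held none of them. The CNCCTCAG matches are printed with their surroundings, on the plus strand and with the match in capitals.

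Spdya, chr17:71552083-71552110: tgaggtagatcgCTGAGGCGgaggctgt

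Sun1, chr5:139200659-139200686: tgggcggtgcggacgaggcCTGAGGCGg

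The first comparison followed the genes in XX germ cells as they moved towards meiosis. Between 0 h and 24 h in DMSO, *Kash5*, *Majin*, *Spdya* and *Terb1* rose, so that 4 of 6 members were called higher where 2.32% of all genes tested were. Between 0 h and 72 h, 5 of 6 rose, all except *Sun1*, against 18.8% of all genes. The median log2 fold change over the 6 genes was 1.72 at 24 h and 4.47 at 72 h, and over all genes 0.05 and -0.01.

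*Terb1* had 8.15, 10.3, 14.3 and 23.1 CPM in XX 0 h, 21.7, 23.1, 35.5 and 62.9 CPM after 24 h and 301, 308, 332 and 335 CPM after 72 h. The 0 h and 24 h groups overlapped, and the 72 h libraries stood far above both and close to each other. The log2 fold change from 0 h was 1.38 (SE 0.252, FDR 0.0422) at 24 h and 4.82 (SE 0.216, FDR 8.349e-24) at 72 h. The 24 h call was lost without any 1 of 5 libraries, XX 0 h replicates 3, 4 and 5 and XX 24 h DMSO replicates 4 and 6, with an FDR of 0.0522 to 0.271. It was also lost with DESeq2 (FDR 0.307), without a filter on low counts (0.231) and in the fit to only the groups compared (0.0729), and was called under 5 of 9 other settings.

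*Spdya* had 8.39, 9.27, 9.70 and 11.1 CPM in XX 0 h, 28.8, 36.3, 46.4 and 97.1 CPM after 24 h and 299, 313, 315 and 374 CPM after 72 h. The 3 times did not overlap. The log2 fold change from 0 h was 2.05 (SE 0.249, FDR 3.339e-05) at 24 h and 5.01 (SE 0.226, FDR 1.003e-23) at 72 h. *Terb1* and *Spdya* thus reached 28.3 and 32.2 times their 0 h level, on the scale of the model.

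*Kash5* and *Majin* were counted in small numbers before culture. *Kash5* had 0.386, 0.836, 2.10 and 2.72 CPM in XX 0 h, 7.58, 9.02, 9.45 and 22.3 CPM after 24 h and 25.2, 28.9, 35.9 and 38.8 CPM after 72 h. Its log2 fold change was 2.89 (SE 0.491, FDR 0.001048) at 24 h and 4.54 (SE 0.461, FDR 1.126e-10) at 72 h, with no overlap between times. *Majin* had 0.699, 1.16, 2.23 and 3.10 CPM in XX 0 h, 5.59, 9.96, 10.4 and 24.3 CPM after 24 h and 34.1, 36.7, 42.8 and 58.9 CPM after 72 h. For *Majin* the log2 fold change was 2.21 (SE 0.492, FDR 0.03142) at 24 h and 4.40 (SE 0.447, FDR 1.29e-10) at 72 h. The 24 h call of *Majin* was lost without any 1 of 6 libraries, all 4 of XX 0 h and XX 24 h DMSO replicates 4 and 6, with an FDR of 0.0503 to 0.114, and also without a filter on low counts (0.224).

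*Terb2* had smaller fold changes. It had 13.4, 14.7, 15.1 and 17.1 CPM in XX 0 h, 21.2, 30.3, 32.7 and 53.0 CPM after 24 h and 66.6, 68.9, 73.3 and 89.3 CPM after 72 h. The groups did not overlap, but the 24 h value, a log2 fold change of 0.99 (SE 0.221, FDR 0.397), did not pass the test, whereas that at 72 h did (2.31, SE 0.200, FDR 1.063e-10). *Sun1* had 69.9 to 86.7 CPM in XX 0 h and 67.5 to 99.0 CPM after 24 h. After 72 h its 4 libraries had 138, 141, 144 and 150 CPM and lay above all earlier ones, yet the log2 fold change of 0.82 (SE 0.112) from 0 h had an FDR of 0.0538. It was called under 7 of 9 other settings, one of them the subtraction of the index share (0.84, FDR 0.0368).

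With the index share subtracted from the earlier libraries the rises were larger, 3.98 for *Spdya*, 3.83 for *Kash5*, 3.10 for *Majin* and 2.77 for *Terb1* at 24 h, and 6.93 for *Spdya* and 6.19 for *Terb1* at 72 h, all called. Without that subtraction, the log2 fold change between 24 h and 72 h was 3.44 for *Terb1* and 2.96 for *Spdya*, above those of the first 24 h, whereas *Kash5* had 2.89 in the first 24 h and 1.64 after it. With it, the second interval gave 3.41 for *Terb1* and 2.95 for *Spdya*, so that for *Spdya* the first 24 h held the larger change. In that second interval 5 of 6 members were called higher, against 10.3% of all genes, and *Sun1* (0.82, FDR 0.100) was called as well without XX 24 h DMSO replicate 4 (FDR 0.0371). The XX 24 h libraries were uneven, and replicate 6 was the highest of the 4 for 5 of 6 members. The CPM of the members by library shows the spread of XX 24 h and the tight XX 72 h group.

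Markers of other cells moved with time in XX as well. The 3 mesonephros markers, mostly *Lhx1*, took 0.00797% to 0.0113% of counts at 0 h, 0.00301% to 0.00480% after 24 h and 0.000586% to 0.00115% after 72 h. The 6 markers of Sertoli and supporting cells, took 0.00120% to 0.00227% at 0 h, 0.000970% to 0.00196% after 24 h and 0.00391% to 0.00755% after 72 h, with *Amh* at 0 at 0 h and 72 h. The 5 interstitial and steroidogenic markers, none at 0, took 0.00136% to 0.00254%, 0.000970% to 0.00204% and 0.00484% to 0.00670% at these times. The 7 blood markers went down, from 0.00309% to 0.00486% at 0 h, where *Ptprc* was at 0, to 0.00161% to 0.00260% after 72 h, where *Hbb-bh1* was. The 4 endothelial markers took 0.000696% to 0.00116% at 0 h and 0.000534% to 0.000600% after 24 h. The 5 germ cell markers took 0.261% to 0.287% at 0 h and 0.210% to 0.223% after 72 h. Within that sum *Dppa3* (11409 counts at 0 h and 671 at 72 h) and *Pou5f1* (942 and 59) fell, while *Mael* rose (607 and 2308). The germ cell sum is thus the level of these genes rather than a share of cells. The part of other cells in the rises was not tested.

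**Figure D1:**
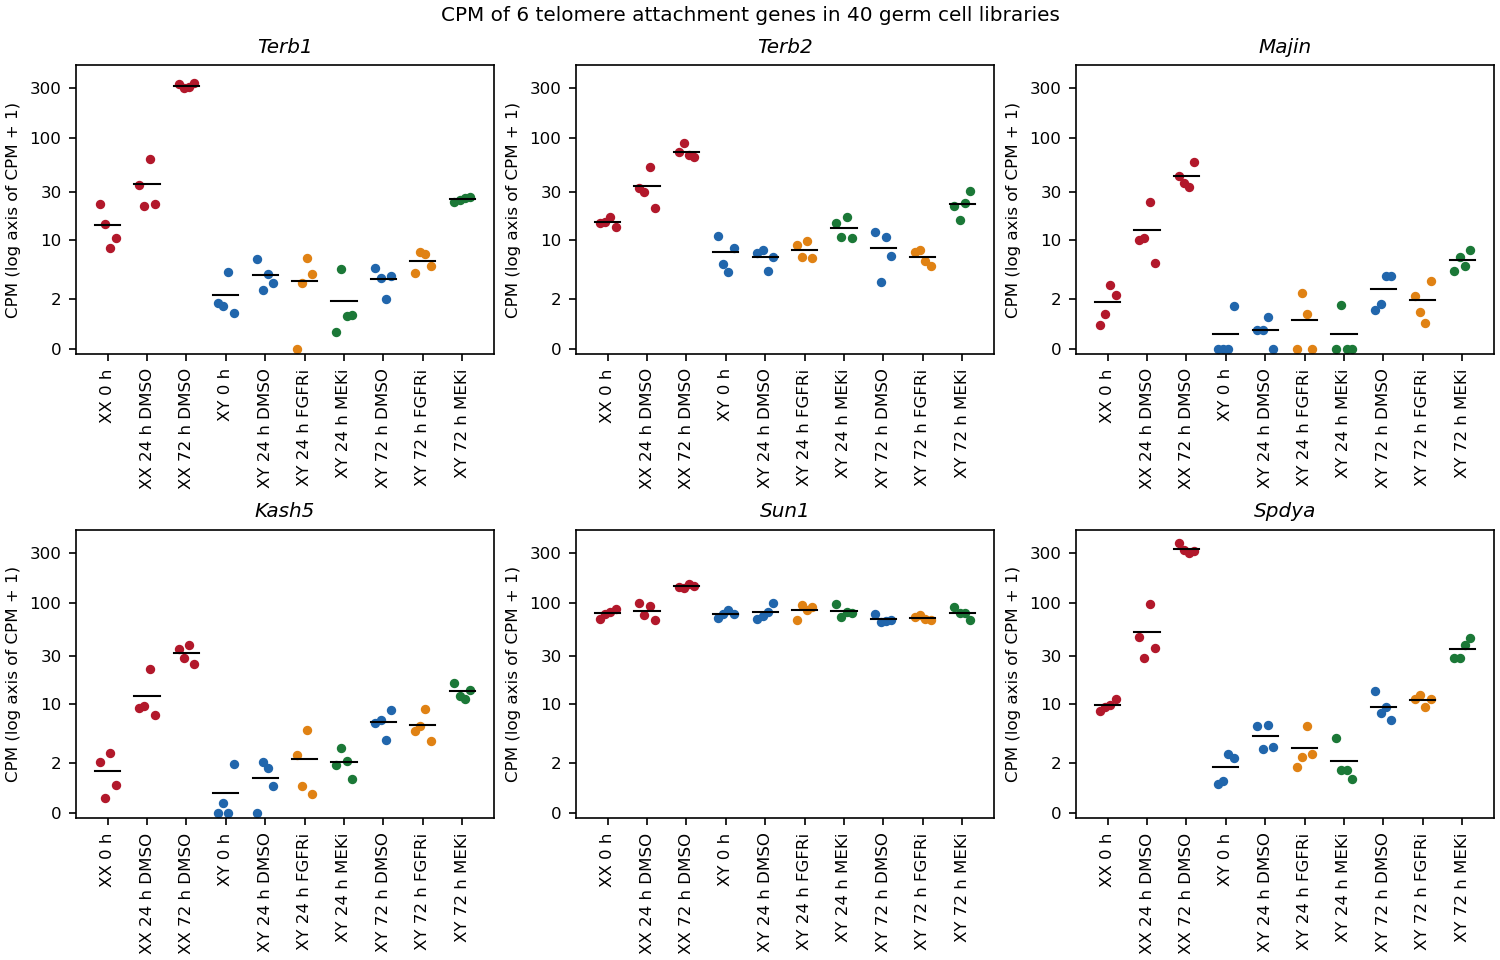
CPM of each gene in the 40 libraries, on a log axis of CPM + 1, with 1 point per library and a line at the mean of each group of 4 (red XX, blue XY DMSO or 0 h, orange FGFRi, green MEKi). The 4 XX 72 h libraries are the highest for all 6 genes, and *Sun1* differs least, from 65.2 to 99.5 CPM in all other groups.

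At 0 h, before culture, *Terb1* and *Spdya* were called lower in the XY germ cells, 2 of 6 members where 1.65% of all genes were called lower. *Terb1* had 1.18, 1.56, 1.75 and 4.46 CPM in XY 0 h and *Spdya* 0.877, 1.04, 2.35 and 2.67 CPM, all below the XX 0 h libraries given above. The log2 fold changes were -2.54 (SE 0.490, FDR 0.005759) for *Terb1* and -2.63 (SE 0.509, FDR 0.005445) for *Spdya*. The index share bears on both. The XX 0 h libraries shared their index with XX 72 h libraries, where both genes were abundant. At a share of 3.25%, 71.0 of the 128 *Terb1* counts and 72.8 of the 101 *Spdya* counts of XX 0 h would come from the partners. That share was estimated in XX 24 h libraries. In XX 0 h replicate 2 it gave 14.5 *Spdya* counts where 12 were found, so it can take away too much there. After subtraction the log2 fold changes were -1.17 and -0.97, both with an FDR of 1.0. Without XY 0 h replicate 3 the FDR was 0.0859 for *Terb1* and 0.119 for *Spdya*. The mesonephros markers took more of the counts in XY 0 h (0.0217% to 0.0277%) than in XX 0 h, as did the blood markers (0.00490% to 0.0360%, none at 0) and the interstitial markers (0.00255% to 0.00594%), and their part was not tested.

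The other 4 members were not called at 0 h. *Terb2* had 4.46, 5.45, 8.23 and 10.97 CPM in XY 0 h, all below XX 0 h, and its log2 fold change was -1.13 (SE 0.307, FDR 0.543). *Majin* was found in 1 of 4 XY 0 h libraries, at 1.57 CPM, and *Kash5* in 2 of 4, at 0.259 and 1.96 CPM. *Sun1* was the same in both sexes within the spread, at 71.1 to 85.5 CPM in XY 0 h, with a log2 fold change of -0.05 (95% interval -0.28 to 0.18).

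After 24 h in DMSO, 5 of 6 members were called lower in the XY germ cells, where 5.99% of all genes were, and the sexes did not overlap for any of the 5, as for 17.1% of all genes in that direction. *Terb1* had 2.60, 3.25, 4.13 and 6.22 CPM in XY 24 h DMSO, and *Spdya* 3.13, 3.25, 5.70 and 5.85 CPM. *Terb2* had 4.47, 6.49, 7.26 and 7.81 CPM. These XY values were low and close together, against the wide XX group. The log2 fold changes were -2.90 for *Terb1* (SE 0.391, FDR 7.409e-06), -3.31 for *Spdya* (SE 0.363, FDR 4.484e-08) and -2.21 for *Terb2* (SE 0.306, FDR 4.683e-05). *Majin* had at most 1.03 CPM and *Kash5* at most 2.08 CPM in XY, and their log2 fold changes were -4.56 (SE 0.747, FDR 4.533e-05) and -3.47 (SE 0.596, FDR 0.0001944). The XY libraries held 5 counts of *Majin* in all, and without XY 24 h DMSO replicate 5, which held 0, its value was -3.49 (FDR 0.005334), still called. *Sun1* had 69.99 to 99.5 CPM in XY and a log2 fold change of 0.07 (95% interval -0.18 to 0.32). All 5 calls held with the index share subtracted. The mesonephros markers took 0.00963% to 0.0198% of counts in XY against at most 0.00480% in XX, and the germ cell markers 0.315% to 0.422% against 0.261% to 0.303%, a part that was not tested.

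After 72 h in DMSO, all 6 members were called lower in XY, where 18.1% of all genes were, and no XY library reached an XX library for any of the 6, as for 27.2% of all genes. *Terb1* had 2.00, 3.76, 3.98 and 4.92 CPM in XY 72 h DMSO, giving a log2 fold change of -6.37 (SE 0.400, FDR 2.239e-18), which is 82.8-fold. *Spdya* had 6.64, 7.94, 9.32 and 13.4 CPM, giving a log2 fold change of -5.08 (SE 0.267, FDR 5.927e-21). *Terb2* had 3.34, 6.64, 10.7 and 12.1 CPM, giving a log2 fold change of -3.29 (SE 0.290, FDR 9.551e-12). The XY level of *Terb1* was 1.15% of the XX mean, that of *Spdya* 2.87% and that of *Terb2* 10.97%.

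*Majin*, *Kash5* and *Sun1*, whose products sit in the envelope, had a wide range of differences at 72 h. *Majin* had 1.34, 1.67, 3.98 and 3.99 CPM in XY 72 h DMSO (log2 fold change -4.11, SE 0.450, FDR 1.481e-09) and *Kash5* 3.99, 6.27, 6.69 and 8.63 CPM (-2.27, SE 0.319, FDR 7.507e-06). *Sun1* had 65.2, 66.6, 68.3 and 77.9 CPM (-1.02, SE 0.120, FDR 0.001068). The *Majin* level was 6.37% of the XX mean, that of *Kash5* 19.9% and that of *Sun1* 48.5%. The 4 endothelial markers took 0.000255% to 0.000814% of counts in XX 72 h, where *Tek* was at 0, and more in XY (0.00204% to 0.00226%), as did the 3 mesonephros markers (0.000586% to 0.00115% in XX and 0.00252% to 0.00320% in XY). The 6 markers of Sertoli and supporting cells took 0.00391% to 0.00755% in XX, where *Amh* was at 0, and 0.00229% to 0.00337% in XY. These genes did not move together. *Wt1* (160 counts in XX and 46 in XY), *Foxl2* (66 and 5), *Gata4* (42 and 22) and *Wnt4* (55 and 47) had more in XX, and *Sox9* (44 and 84) more in XY. The blood markers took 0.00161% to 0.00260% in XX, where *Hbb-bh1* was at 0, and 0.00290% to 0.00854% in XY. The germ cell markers took 0.278% to 0.321% in XY against at most 0.223% in XX. The part of these cells in the differences was not tested.

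The difference between the sexes was compared between times with an interaction term. From 24 h to 72 h it grew for *Terb1* (-3.47, SE 0.560, FDR 3.22e-05), *Spdya* (-1.77, SE 0.451, FDR 0.02414) and *Sun1* (-1.09, SE 0.172, FDR 0.01217), 3 of 6 members where 9.93% of all genes were called in this direction. The call for *Spdya* was lost with the index share subtracted (-1.08, FDR 0.440) and without any 1 of XX 24 h DMSO replicates 5 and 9 and XY 24 h DMSO replicates 2 and 4 (FDR 0.0551 to 0.0651). That for *Sun1* was lost without XX 24 h DMSO replicate 9 (FDR 0.0722) or XY 24 h DMSO replicate 5 (FDR 0.152). From 0 h to 72 h the same 3 genes and *Terb2* were called, 4 of 6 against 12.9% of all genes, with values of -3.83 for *Terb1*, -2.45 for *Spdya*, -2.17 for *Terb2* and -0.97 for *Sun1*. That of *Sun1* (FDR 0.0415) was called in 3 of 16 fits that left out 1 library, those without XX 0 h replicate 5, XY 0 h replicate 2 or XY 72 h DMSO replicate 2, and had an FDR of 0.0530 to 0.101 in the others. From 0 h to 24 h, 0 of 6 were called by limma and 0 had an unadjusted p under 0.05 against a 1.5-fold change, where 0.452% of all genes were called in either direction. The quasi-likelihood test of edgeR, which tests against no change, called 1 member (*Terb2*, -1.39, FDR 0.0187) and 1500 of all 15252 genes.

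**Figure D2:**
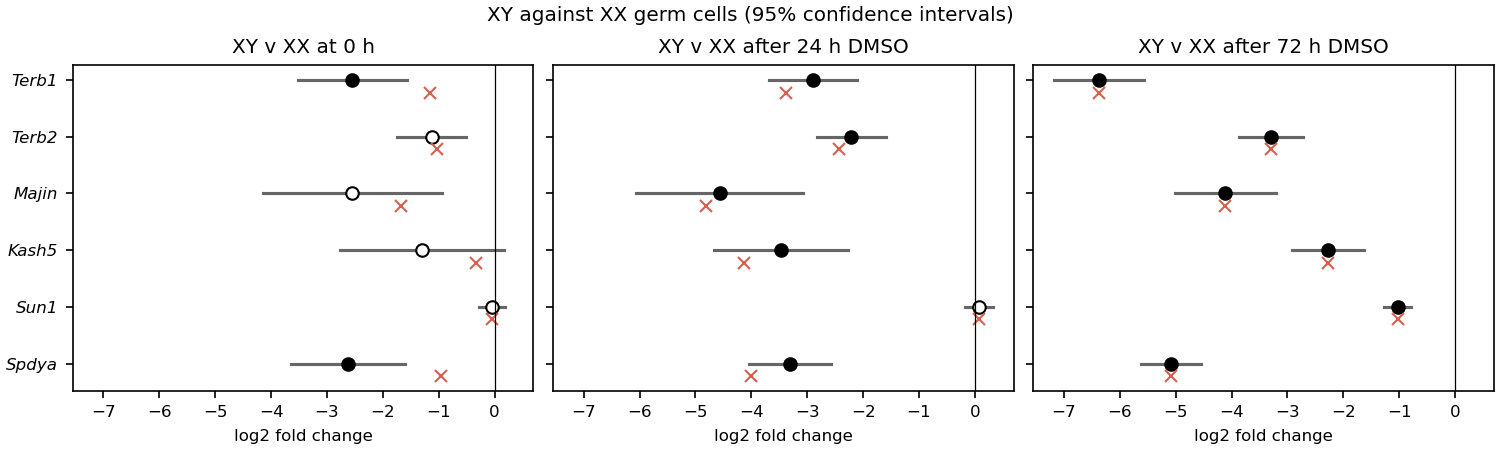
Log2 fold change of XY against XX germ cells for the 6 genes, without culture and with 24 h or 72 h of DMSO culture, with 95% confidence intervals (filled points were called, open points were not) and, as a cross, the value after subtraction of the shared index counts. The crosses lie well to the right of the points for *Terb1* and *Spdya* at 0 h, at -1.17 and -0.97, and directly below the points at 72 h.

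In XY germ cells all members except *Sun1* were low throughout, but not all of them stayed at their 0 h level. Between 0 h and 24 h in DMSO, 0 of 6 were called by limma and 0 had an unadjusted p under 0.05 against a 1.5-fold change, where 2.94% of all genes were called in either direction. The quasi-likelihood test of edgeR, which tests against no change, called 1 member (*Spdya*, log2 fold change 1.49, FDR 0.0298) and 3421 of all 15252 genes. After 72 h, *Kash5*, *Majin* and *Spdya* were higher than at 0 h, 3 of 6 against 20.2% of all genes. *Kash5* and *Majin* passed the filter only through other groups. In the fit to only the groups compared, whose filter left them out, 1 of 6 was called. The log2 fold changes were 3.57 for *Kash5* (SE 0.651, FDR 8.206e-05), 2.83 for *Majin* (SE 0.801, FDR 0.01194) and 2.56 for *Spdya* (SE 0.528, FDR 0.0009933). That of *Majin* was lost without XY 0 h replicate 2 (FDR 0.0554) or 3 (2.03, FDR 0.147). Without XY 0 h replicate 6 the values were 3.49 for *Majin* and 4.24 for *Kash5*. These levels stayed far below XX 72 h. *Terb1* (1.00, SE 0.595, FDR 0.484) and *Terb2* (0.14, SE 0.372, FDR 1.0) did not pass the test. Over the same time the mesonephros markers went from 0.0217% to 0.0277% of counts to 0.00252% to 0.00320% and the endothelial markers went from 0.000562% to 0.00144% to 0.00204% to 0.00226%, none at 0, and their part was not tested.

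From 24 h to 72 h, 2 of 6 were called higher, *Kash5* (2.84, SE 0.620, FDR 0.001894) and *Majin* (2.64, SE 0.824, FDR 0.03189), against 16.0% of all genes. Both passed the filter only through other groups. In the fit to only the groups compared, whose filter left both out, 0 of 6 were called. The *Majin* call was lost without any 1 of 4 libraries, XY 24 h DMSO replicates 4 and 5 and XY 72 h DMSO replicates 5 and 6, with an FDR of 0.0551 to 0.354, and was 1.56 without XY 24 h DMSO replicate 5. *Spdya* went from 3.13 to 5.85 CPM to 6.64 to 13.4 CPM without overlap, yet its log2 fold change of 1.19 (SE 0.423, FDR 0.224) did not pass the test. With the index share subtracted it was 1.87 and was called (FDR 0.0427). The same interval could be followed within pool 2 in FGFRi. There, *Spdya* was the one member called, from 1.74, 2.44, 2.64 and 5.74 CPM to 9.28, 11.2, 11.3 and 12.4 CPM (log2 fold change 1.79, SE 0.473, FDR 0.0234), 1 of 6 against 19.2% of all genes. That call was lost without any 1 of XY 24 h FGFRi replicates 1, 3 and 5 (FDR 0.0608 to 0.0690). *Kash5* went from 0.527, 0.815, 2.60 and 5.17 CPM to 3.88, 5.08, 5.80 and 8.89 CPM, with an FDR of 0.112, and of 0.0374 without XY 24 h FGFRi replicate 4.

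Markers of other cells moved over this interval in both media, none of them at 0. In DMSO the endothelial markers went from 0.000305% to 0.000587% of counts at 24 h to 0.00204% to 0.00226% at 72 h, the interstitial markers from 0.00175% to 0.00231% to 0.00398% to 0.00613% and the mesonephros markers from 0.00963% to 0.0198% to 0.00252% to 0.00320%. In FGFRi the endothelial markers went from 0.000158% to 0.000456% to 0.00181% to 0.00219%, the mesonephros markers from 0.00901% to 0.0125% to 0.00275% to 0.00322% and the germ cell markers from 0.412% to 0.495% to 0.242% to 0.313%. The part of these cells in the changes was not tested.

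The inhibitors were then compared with the DMSO control to ask whether these genes changed in XY germ cells of treated gonads. The drugs were given to whole gonads with mesonephros, and in which cells they acted was not tested here. After 24 h, 0 of 6 members were called by limma with either drug, and 0 had an unadjusted p under 0.05 against a 1.5-fold change, which is not a test against no change. Of all genes, 0.262% were called in either direction with FGFRi and 0.164% with MEKi. The quasi-likelihood test of edgeR, which tests against no change, called 1 member, *Terb2*, in MEKi, and 0 in FGFRi. Of all 15252 genes that test called 853 in MEKi and 855 in FGFRi. *Terb2* had 10.4, 10.6, 14.9 and 16.9 CPM in XY 24 h MEKi, all above the 4 DMSO libraries, and its log2 fold change was 1.04 (SE 0.342), with an FDR of 1.0 by limma and 0.0273 by edgeR. *Terb1* had 0.464, 1.06, 1.10 and 4.78 CPM and *Spdya* 1.10, 1.59, 1.59 and 4.18 CPM in XY 24 h MEKi, ranges that overlapped those of DMSO, with log2 fold changes below 0, of -1.46 (95% interval -2.76 to -0.17) and -0.92 (-2.07 to 0.22), both with an FDR of 1.0. *Majin* was found in 1 of 4 XY 24 h MEKi libraries, and *Kash5* (1.10 to 3.19 CPM) and *Sun1* (73.3 to 96.6 CPM) overlapped DMSO. The blood markers took 0.0166% to 0.0464% of counts in XY 24 h MEKi and 0.00380% to 0.0125% in DMSO, and the mesonephros markers 0.00679% to 0.00852% against 0.00963% to 0.0198%, none at 0, a part that was not tested. In XY 24 h FGFRi every member overlapped DMSO, with log2 fold changes from -0.48 (*Terb1*) to 1.15 (*Kash5*). At this time *Stra8*, the inducer of meiosis, was already higher in MEKi than in DMSO (log2 fold change 2.19).

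After 72 h, MEKi but not FGFRi gave calls. In XY 72 h MEKi, *Terb1*, *Spdya* and *Terb2* rose, 3 of 6 members against 4.01% of all genes called higher. *Terb1* had 23.8, 25.1, 26.4 and 27.0 CPM, against at most 4.92 CPM in DMSO, giving a log2 fold change of 2.74 (SE 0.410, FDR 7.027e-05) or 6.67-fold. *Spdya* had 29.2, 29.3, 38.5 and 45.4 CPM, against at most 13.4 CPM, giving a log2 fold change of 1.88 (SE 0.276, FDR 0.0003363) or 3.69-fold. *Terb2* had 15.9, 21.8, 23.4 and 30.95 CPM, against at most 12.1 CPM, giving a log2 fold change of 1.53 (SE 0.294, FDR 0.0162) or 2.89-fold. The *Terb2* value rested in part on the lowest DMSO library, and without XY 72 h DMSO replicate 4 it was 1.08, with an FDR of 0.313. With DESeq2 it was 1.44, with an FDR of 0.0530.

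*Majin* and *Kash5* also had higher values in every MEKi library than in any DMSO library, so that the groups did not overlap for 5 of 6 members, as for 18.9% of all genes in that direction, but the changes were smaller or less precise and did not pass the test. *Majin* had 4.47, 5.15, 6.45 and 7.84 CPM, giving a log2 fold change of 1.21 (95% interval 0.25 to 2.18, FDR 0.497). *Kash5* had 11.3, 12.2, 13.7 and 16.4 CPM, giving a log2 fold change of 0.96 (95% interval 0.32 to 1.59, FDR 0.576). Both were called by limma eBayes where the fold of 1.5 was observed rather than tested (FDR 0.0350 for *Majin* and 0.0112 for *Kash5*), and *Kash5* also by the quasi-likelihood test of edgeR (FDR 0.0223). *Sun1* had 68.2, 78.6, 80.1 and 90.3 CPM in MEKi, which overlapped DMSO, and a log2 fold change of 0.17 (95% interval -0.07 to 0.40). The summed level of the 4 endothelial markers, of which none was at 0 in either group, went the other way, from 0.00204% to 0.00226% of counts in DMSO to 0.000412% to 0.00115% in MEKi. The fall lay in *Cdh5* (74 counts in DMSO and 30 in MEKi) and *Plvap* (66 and 50). *Tek* (7 and 22) and *Kdr* (11 and 21) had more counts in MEKi, whose 4 libraries held more counts in all. The part of these markers in the result was not tested.

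In XY 72 h FGFRi, 0 of 6 members were called by limma and 0 had an unadjusted p under 0.05 against a 1.5-fold change, where 0.00656% of all genes were called in either direction. *Terb1* had 4.23, 5.17, 6.96 and 7.32 CPM and *Terb2* 5.17, 5.80, 7.28 and 7.82 CPM, both overlapping DMSO. The log2 fold changes were 0.52 for *Terb1* (95% interval -0.41 to 1.45), 0.24 for *Spdya* (-0.38 to 0.86), -0.11 for *Terb2* (-0.80 to 0.58), -0.46 for *Majin* (-1.64 to 0.72), -0.19 for *Kash5* (-0.91 to 0.53) and 0.04 for *Sun1* (-0.19 to 0.28). The quasi-likelihood test of edgeR called 0 of 6, where it called 24 of all 15252 genes, and the lowest adjusted p of a member under any setting was 0.651, for *Terb1*. At matched dose and time the drugs, which act on different proteins, were compared directly. *Terb1* (2.22, SE 0.276, FDR 5.816e-06), *Spdya* (1.64, SE 0.206, FDR 6.348e-05) and *Terb2* (1.64, SE 0.247, FDR 0.0007471) were higher in MEKi than in FGFRi, 3 of 6 against 5.71% of all genes, and *Majin* (1.67, SE 0.462) had an FDR of 0.0775. The endothelial markers took 0.000412% to 0.00115% of counts in MEKi and 0.00181% to 0.00219% in FGFRi, and the interstitial markers 0.00393% to 0.00734% and 0.00268% to 0.00390%, none at 0. The interstitial sum was higher mostly through *Nr2f2* (389 counts in MEKi and 89 in FGFRi), with *Hsd3b1* at 52 and 37. *Pdgfra* (139 and 153), *Star* (116 and 133) and *Cyp11a1* (17 and 36) had fewer counts in MEKi. The part of these markers was not tested.

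**Figure D3:**
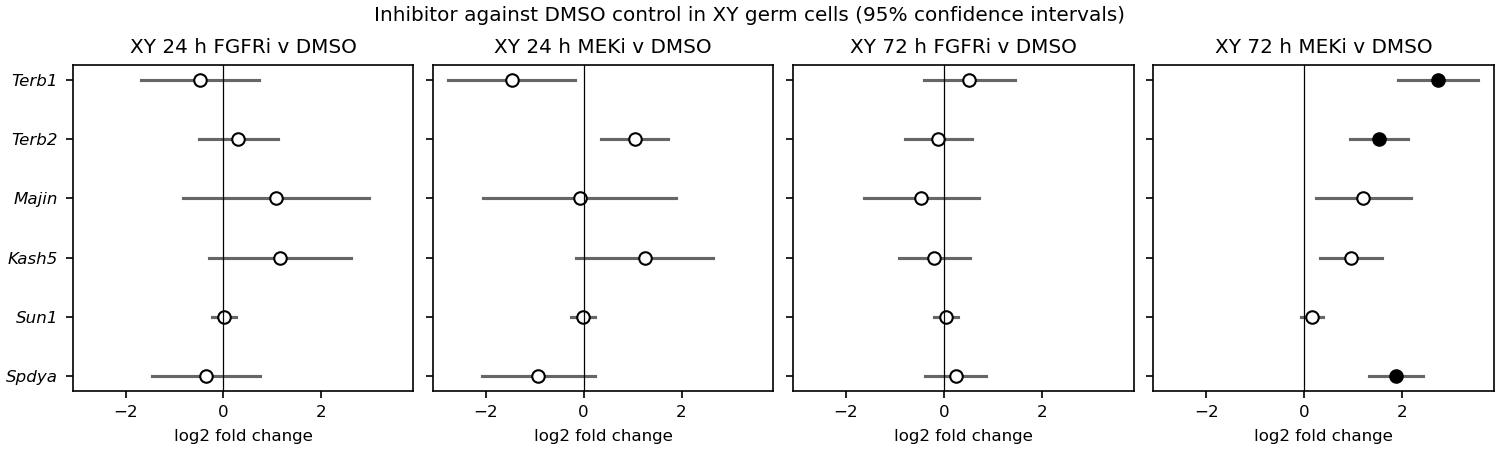
Log2 fold change of XY germ cells in FGFRi or MEKi against DMSO at 24 h and 72 h, on 1 scale, with 95% confidence intervals (filled points were called, open points were not). The filled points are *Terb1*, *Terb2* and *Spdya* in 72 h MEKi, at 2.74, 1.53 and 1.88.

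The log2 fold change of MEKi against DMSO was higher at 72 h than at 24 h for *Terb1* (interaction 4.20, SE 0.766, FDR 0.002152) and *Spdya* (2.81, SE 0.635, FDR 0.03105), 2 of 6 where 1.21% of all genes were called in this direction. For *Terb1* it went from -1.46 to 2.74 and for *Spdya* from -0.92 to 1.88, so each interaction includes a value below 0 at 24 h that did not pass the test. The value of *Spdya* was 2.13 (FDR 0.361) with the index share subtracted, since XY 24 h DMSO shared indices with XY 72 h MEKi, and it was lost without any 1 of XY 24 h DMSO replicates 2 and 4, XY 24 h MEKi replicates 2, 4 and 6 and XY 72 h DMSO replicate 4 (FDR 0.0576 to 0.0918). *Terb1* remained called without any 1 of the 16 libraries and after subtraction (3.75, FDR 0.0190). For *Terb2* the interaction was 0.49 (SE 0.451, FDR 1.0).

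MEKi-treated XY germ cells did not reach the XX level. At 24 h, *Kash5*, *Majin*, *Spdya* and *Terb1* were lower in XY MEKi than in XX DMSO, 4 of 6 against 5.52% of all genes, with log2 fold changes of -2.22, -4.65, -4.23 and -4.36. The call of *Kash5* was lost without XY 24 h MEKi replicate 6 (FDR 0.0562), and *Terb2* (-1.17, FDR 0.115) was called without XX 24 h DMSO replicate 9 (FDR 0.0179) and under 5 of 9 other settings, among them glmTreat (FDR 0.004159) and DESeq2 (FDR 0.0388). The value of *Majin* was -5.25 without XY 24 h MEKi replicate 2. The blood markers took 0.0166% to 0.0464% of counts in XY 24 h MEKi and 0.00269% to 0.00451% in XX 24 h DMSO, where *Hbb-bh1* was at 0. The Sertoli and supporting markers took 0.00210% to 0.00315%, with *Amh* at 0, and 0.000970% to 0.00196%, the mesonephros markers 0.00679% to 0.00852% and 0.00301% to 0.00480%, and the germ cell markers 0.374% to 0.397% and 0.261% to 0.303%. The Sertoli and supporting sum was higher through *Sox9* (128 counts in XY MEKi and 23 in XX) and *Wt1* (50 and 37). *Foxl2* (3 and 18), *Wnt4* (12 and 47) and *Gata4* (7 and 9) had fewer counts in XY MEKi. The part of these markers was not tested.

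At 72 h all 6 were lower, against 12.8% of all genes. The log2 fold changes were -3.63 for *Terb1*, -3.20 for *Spdya*, -2.90 for *Majin*, -1.77 for *Terb2*, -1.32 for *Kash5* and -0.86 for *Sun1* (FDR 0.0271 for *Sun1* and at most 0.002356 for the others). The call of *Sun1* was lost without any 1 of XX 72 h DMSO replicates 7 and 11 and XY 72 h MEKi replicates 4 and 5 (FDR 0.0529 to 0.0923). Without a filter on low counts 4 of 6 were called, as *Kash5* (-1.20, FDR 0.125) and *Sun1* (-0.82, FDR 0.119) were lost. No library of XY 72 h MEKi overlapped XX 72 h DMSO for any of the 6, as for 23.9% of all genes in that direction. The mesonephros markers took 0.00264% to 0.00364% of counts in XY 72 h MEKi, above XX 72 h, and the germ cell markers 0.265% to 0.374% against 0.210% to 0.223%, a part that was not tested. As a share of the XX 72 h mean, *Terb1* was at 8.01% in MEKi, *Spdya* at 10.9%, *Majin* at 13.9%, *Terb2* at 30.9%, *Kash5* at 41.6% and *Sun1* at 55.4%. *Terb1* and *Spdya*, which had the largest log2 fold changes of the 6 in MEKi, were thus the members farthest below the XX level.

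The order of the 10 groups was read for each gene by its mean. XX 72 h DMSO came first for all 6 and overlapped no other group. XX 24 h DMSO and XY 72 h MEKi followed in that order for *Terb1*, *Terb2*, *Majin* and *Spdya* and in the reverse order for *Kash5*, and these neighbours overlapped in each of the 5. Below them, *Terb1* in XX 0 h stood clear of XY 72 h MEKi above it and of XY 72 h FGFRi beneath it, and the 6 remaining XY groups of *Terb1* each overlapped the next of them in the order. With the index share subtracted, *Terb1* in XX 0 h had 1.59, 4.83, 7.15 and 13.0 CPM, which still lay below XY 72 h MEKi but overlapped XY 72 h FGFRi (4.24 to 7.34 CPM) and every other XY group except XY 72 h MEKi. For *Sun1* every group except XX 72 h DMSO overlapped its neighbours.

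Genes that work with the 6 members were read from lists. Of 12 meiotic reference genes, which include the meiotic inducers *Stra8* and *Meiosin*, cohesins and synaptonemal complex genes, 11 were lower in XY than in XX at 72 h, where 18.1% of all genes were. In XY 72 h MEKi, 5 of 12 were higher than in DMSO, against 4.01% of all genes, the largest changes being those of *Stra8* (3.18), *Meioc* (2.56), *Dmc1* (2.02) and *Rec8* (1.97), and none was lower. Their median log2 fold change was 0.86, that of the 6 members 1.37 and that of all genes 0.01. *Stra8* in MEKi was at 136% of its XX 72 h mean and *Rec8* at 200.5%, while *Dmc1*, the meiotic recombinase, was at 13.5% and *Meioc* at 18.9%.

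**Figure D4:**
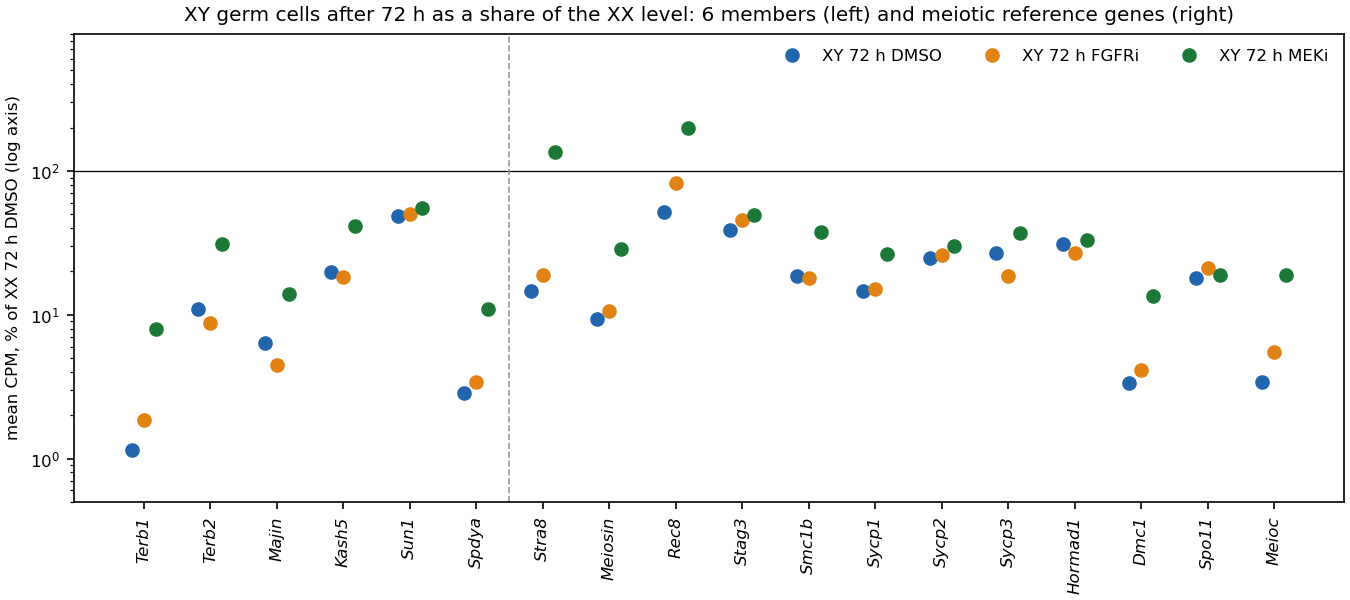
Mean CPM of XY germ cells after 72 h in DMSO, FGFRi or MEKi as a percent of the XX 72 h DMSO mean, on a log axis, for the 6 genes (left of the dashed line) and 12 meiotic reference genes. *Stra8* and *Rec8* in MEKi lie above 100%, whereas all 6 members lie below it, from 8.01% for *Terb1* to 55.4% for *Sun1*.

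Of the 7 shelterin genes, whose products coat telomeres in all cells, 0 were called by limma in XX germ cells between 0 h and 72 h, where 18.8% of all genes were higher and 18.4% lower. In XY 72 h MEKi 1 was higher, *Tinf2* (1.48), against 4.01% of all genes, and 0 were lower, against 5.11%. *Tinf2*, which links the DNA-binding shelterin subunits, had 16.4 ± 3.93 CPM in XY 72 h DMSO (SD, n = 4), 47.6 ± 7.16 CPM in MEKi and 103.8 ± 12.4 CPM in XX 72 h DMSO. It was the one shelterin gene called lower in XY than XX at 72 h (-2.59), where *Pot1a* was higher (1.98), and of all genes 18.1% were lower and 22.8% higher. Of 14 other genes of the nuclear envelope and its SUN and KASH proteins, 12 passed the filter. In XX 72 h against 0 h, 2 were higher, among them *Lmna* (2.88), and 4 lower, among them *Tor1a* (-2.05), *Lmnb1* (-1.66) and *Lmnb2* (-1.32), where 18.8% and 18.4% of all genes were. In XY 72 h MEKi 1 of 12 was called, *Lmnb1*, a B-type lamin (1.21), which was higher as were 4.01% of all genes.

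Of 16 genes of dynein, the motor that KASH5 recruits, of its partner dynactin and of their regulators, 1 was higher and 4 lower in XX 72 h than at 0 h, against 18.8% and 18.4% of all genes. *Dync1i1* fell by 3.40 on the log2 scale, *Dync1li2* by 2.26 and *Nde1*, a dynein regulator, by 1.20, and *Dync1i2* was higher (1.14). In XY 72 h MEKi against DMSO, *Dctn3* was higher (1.17) and *Dynlrb2* (-2.23) and *Dctn1* (-0.89) were lower, against 4.01% and 5.11% of all genes. Of 8 genes for CDK2, its cyclins and inhibitors and *Fbxo47*, 7 passed the filter, and 4 were higher in XY 72 h MEKi, *Ccne1* (2.83), *Ccne2* (1.91), *Ccna2* (1.09) and *Cdk2* (0.98), against 4.01% of all genes. *Cdk2* is the kinase that the *Spdya* product activates. In XX 72 h against 0 h, *Fbxo47*, which is needed to keep telomeres attached in meiosis, rose by a log2 fold change of 4.35 and *Ccne2* by 2.96, whereas *Cdkn1a* (-2.62) and *Ccna2* (-2.40) were among 3 that were lower, 2 and 3 of 7 where 18.8% and 18.4% of all genes were called. *Fbxo47* was not called in MEKi, where it had 14.9 ± 2.87 CPM against 12.0 ± 4.20 CPM in DMSO (SD, n = 4).

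The genes most like each member were found by Pearson correlation of log2 CPM over the 40 libraries, among 15246 other genes, as a description. The libraries share groups and pools, so the values mostly follow the group means. *Prdm9*, which places meiotic recombination hotspots, was first for *Terb1* (r = 0.955) and second for *Spdya* (r = 0.970). *Iho1*, needed for meiotic DNA breaks, was the third for *Terb1* (r = 0.947), and *M1ap* was the third for both *Majin* (r = 0.926) and *Spdya* (r = 0.965). *Syce1*, a synaptonemal complex gene, was the third for *Terb2* (r = 0.927). *Sycp2* and *Sycp3*, which build the chromosome axis, were first (r = 0.924) and the third (r = 0.911) for *Kash5*.

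Other genes near the top belonged to none of the lists. *H2-K1*, a class I histocompatibility gene, was first for *Spdya* (r = 0.973), *Fgfr1op2* first for *Terb2* (r = 0.941) and *Cyld*, a deubiquitinase, first for *Majin* (r = 0.935). Ranked by Spearman correlation, *Prdm9*, *Fgfr1op2*, *Cyld* and *Sycp2* also came first for their member, whereas *Nipbl* came 94th for *Sun1*. *Luzp1* was second for *Terb1* (r = 0.954), *Zfp672* second for *Terb2* (r = 0.929) and *Eml5* second for *Kash5* (r = 0.912). The second gene for *Majin* (ENSMUSG00000106972, r = 0.934) has no symbol. For *Sun1* the nearest genes were *Nipbl* (r = 0.883), which loads cohesin, *Ercc6l2* (r = 0.880) and *Usp47* (r = 0.867), and none of them was among the nearest genes of another member.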

How the data were processed

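The 40 libraries were made by a 3′ protocol in which each transcript is primed at its poly(A) tail and tagged with a unique molecular identifier (UMI), and they were sequenced in 2 pools of 20. The authors mapped the reads to the mouse genome and deposited raw UMI counts per gene, without normalization, and their code counted by strand. All columns were matched to a library by name. The 6 genes and the lists of related genes were chosen with earlier results of these data known.

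Of the 42422 genes, 40391 were matched by ID to GENCODE M39, and the other 2031 held 1.05% of the counts. Genes were kept by edgeR 4.0.16 (minimum count 10, minimum total 15), which left 15252 genes and 99.2% of the counts. Counts were scaled by TMM and fitted over the 10 groups with limma-voom 3.58.1 in R 4.3.3. Each contrast was tested against a fold change of 1.5 with limma's treat, and p-values were adjusted over all genes tested by the Benjamini-Hochberg method (FDR). Changes of effect were tested as differences of contrasts in the same fit. Per-library CPM used TMM-scaled totals, and correlations used log2 CPM with a prior count of 2. No libraries were identical. All p-values measure the spread between these pooled samples, and counting error sets the precision of low counts. The code was tested on simulated data.

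The alternatives were edgeR's glmTreat and quasi-likelihood test (glmQLFTest), DESeq2 1.42.0 with a fold threshold, limma eBayes with an observed fold over 1.5, DESeq2 size factors, no filter, a fit to only the groups compared, a replicate block, leaving out each library, and subtraction of shared-index counts. That subtraction took 3.25% of the partner's count from each gene of a pool 1 library. The share was taken from Y-linked counts. The 21 found in XX 0 h were scaled to the total counts of XX 24 h and subtracted from the 88 found there, and the remainder was divided by the 2097 in the XY partners. Named genes were the 6 members, the 3 genes most correlated with each, and in each list those called in the contrast described, or the 4 with the largest change where more were called. Tables and figures were made in Python 3.11.15 with pandas 2.3.3 and matplotlib 3.10.9.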

Additional observations from a re-analysis of the deposited data

Results flagged for a closer look

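A single library stood apart from the other 3 in 6 of the 60 sets of 4 libraries (6 genes in 10 groups), by the gap to its neighbour against the whole range. For continuous values chance gives about 1 in 20 such sets. That rate does not apply to the 2 sets of *Majin* among them, where 3 libraries were at 0 and any library with a count stands apart, and is not exact for the others with few counts. *Kash5* in XX 24 h DMSO was 22.3 CPM in replicate 6 and 7.58 to 9.45 CPM in the others, and the same library was the highest of its group for 5 of 6 genes. In XY 0 h, replicate 6 had 1.57 CPM of *Majin*, which was 0 in the other 3, and 1.96 CPM of *Kash5*, which was at most 0.259 CPM in them. In XY 24 h MEKi, replicate 2 had 4.78 CPM of *Terb1* (0.464 to 1.10 CPM in the others) and 1.59 CPM of *Majin* (0 in the others), and replicate 1 had 4.18 CPM of *Spdya* (1.10 to 1.59 CPM in the others).

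An effect differed between times by the interaction test of limma in 9 cases. The XY minus XX difference was lower at 72 h than at 24 h for *Terb1* (-3.47), *Spdya* (-1.77) and *Sun1* (-1.09), and lower at 72 h than at 0 h for *Terb1* (-3.83), *Spdya* (-2.45), *Terb2* (-2.17) and *Sun1* (-0.97). The MEKi minus DMSO difference was higher at 72 h than at 24 h for *Terb1* (4.20) and *Spdya* (2.81). In each of them the 72 h libraries were from pool 2 and the others from pool 1, and each difference was taken within a pool. The part of the pools was not tested.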

How the results depend on the processing

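Of 58 member values called by limma, glmTreat, the quasi-likelihood test, eBayes and DESeq2 size factors kept all 58, DESeq2 and the fit without a filter 52 each, the fit to only the groups compared 53, with 4 not fitted, and subtraction of shared-index counts 54. Without any 1 library 44 remained called and 14 were lost without some library. The 6 lost with DESeq2 were *Terb1* in XX 24 h against 0 h, *Majin* in XY 72 h against 24 h (FDR 0.0593), *Terb2* in 72 h MEKi, *Sun1* (0.0609) and *Spdya* (0.142) in the sex difference at 72 h less 24 h and *Sun1* in that at 72 h less 0 h (0.0697). The 6 lost without a filter were *Terb1* and *Majin* in XX 24 h against 0 h, *Majin* in XY 72 h against 24 h (0.207), *Kash5* and *Sun1* in 72 h MEKi against XX and *Sun1* in the sex difference at 72 h less 0 h (0.149). The fit to only the groups compared lost *Terb1* in XX 24 h against 0 h. Values not called by limma but called under another setting than the block were *Sun1* in XX 72 h against 0 h (7 settings) and against 24 h (the quasi-likelihood test, eBayes and DESeq2 size factors), *Terb2* in XX 24 h against 0 h (glmTreat, the quasi-likelihood test and eBayes), for sex at 0 h (the latter 2 settings), in 24 h MEKi and in the sex difference at 24 h less 0 h (the quasi-likelihood test), at 72 h less 24 h (eBayes) and in 24 h MEKi against XX (both edgeR tests, DESeq2 and eBayes), *Majin* for sex at 0 h and in 72 h MEKi (eBayes) and in MEKi against FGFRi (both edgeR tests, eBayes and the groups compared alone), *Kash5* in 72 h MEKi, in MEKi against FGFRi and in FGFRi 72 h against 24 h (the quasi-likelihood test and eBayes), and *Spdya* in XY 24 h against 0 h (the quasi-likelihood test) and 72 h against 24 h (that test, eBayes and subtraction). The numbers of members called that these settings moved by over 1.5 times were, with the quasi-likelihood test, 1 in XY 24 h against 0 h, 1 in 24 h MEKi, 5 in MEKi against FGFRi at 72 h, 2 in FGFRi 72 h against 24 h and 1 in the sex difference at 24 h less 0 h. With DESeq2 it was 1 in XY 72 h against 24 h and 1 in the sex difference at 72 h less 24 h. With eBayes it was 4 for sex at 0 h, 5 in 72 h MEKi, 5 in MEKi against FGFRi and 2 in FGFRi 72 h against 24 h. Without a filter it was 2 in XX 24 h against 0 h and 1 in XY 72 h against 24 h. In the fit to only the groups compared it was 0 in XY 72 h against 24 h and 1 in XY 72 h against 0 h, where members did not pass that fit's filter. With shared-index counts subtracted it was 0 for sex at 0 h and 1 for the MEKi effect at 72 h less 24 h. Apart from the fit's own filter and the subtraction, the cause was not tested. Leaving out 1 library gave 0 to 2 members for sex at 0 h, 2 to 4 in XX 24 h against 0 h, 5 to 6 in XX 72 h against 24 h, 1 to 2 in XY 72 h against 24 h, 2 to 3 in XY 72 h against 0 h, 2 to 3 in 72 h MEKi, 0 to 2 in FGFRi 72 h against 24 h, 3 to 5 in 24 h MEKi against XX, 5 to 6 in 72 h MEKi against XX, 1 to 3 and 3 to 4 in the sex difference at 72 h less 24 h and less 0 h, and 1 to 2 in the MEKi effect at 72 h less 24 h.

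The samples' shared replicate numbers were not used as pairs. Over 62 same-numbered pairs the median correlation of deviations was -0.0105, and 2 exceeded 0.1. This cannot show whether same-numbered pools shared a litter or culture day, which the labels do not say. With the number as a replicate block, members called were 1 for sex at 0 h, 1 in XX 24 h against 0 h, 1 in XX 72 h against 24 h, 1 in XY 72 h against 24 h, 1 in MEKi against FGFRi, 0 in FGFRi 72 h against 24 h, 3 in 72 h MEKi against XX, 0 and 2 in the sex difference at 72 h less 24 h and less 0 h, 0 in the MEKi effect at 72 h less 24 h and 2 in 72 h MEKi. The block kept 33 of the 58 calls. Among those lost were *Kash5* (FDR 0.0677) and *Sun1* (0.117) for sex after 72 h DMSO and *Spdya* in 72 h MEKi against DMSO (0.0650). In MEKi against FGFRi at 72 h it lost *Terb1* (0.0964) and *Spdya* (0.123).

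Of all 126 member values, those that changed sign were not called under any setting. For *Sun1* they were the sex difference at 24 h (0.07; -0.0324 with glmTreat and the quasi-likelihood test, -0.0479 with DESeq2, -0.0777 with the replicate block, -0.13 to 0.18 without 1 library), XX 24 h against 0 h (-0.00311; 0.0773, 0.0594 and 0.13 in the same order, 0.00787 with shared-index counts subtracted, -0.10 to 0.12), 24 h MEKi (-0.02; 0.0121, 0.0254 and 0.0103 in that order, 0.000701 with DESeq2 size factors, -0.13 to 0.18), 24 h MEKi against XX (0.05; -0.0203, -0.0225 and -0.0675 in that order, -0.0747 to 0.14) and the sex difference at 24 h less 0 h (0.12; -0.00439 with both edgeR tests, -0.0534 with the block, -0.0791 to 0.23). Others of *Sun1* were 24 h FGFRi (-0.00940 without a filter, -0.10 to 0.21 without 1 library), XY 24 h against 0 h (-0.0829 to 0.23) and the MEKi effect at 72 h less 24 h (-0.00863 to 0.31). For *Terb1* they were 24 h FGFRi (0.12 with the block, -0.94 to 0.26 without 1 library) and XY 72 h against 24 h (-0.03; 0.0212 with DESeq2, 0.0873 with its size factors, 0.42 with subtraction, -0.32 to 0.19). For *Terb2* they were XY 24 h against 0 h (-0.31 to 0.0517), 72 h against 24 h (-0.12 to 0.69), 72 h against 0 h (-0.14 without a filter, -0.21 to 0.60) and 72 h FGFRi (-0.53 to 0.23). For *Majin* they were XY 24 h against 0 h (-0.0276 with subtraction, -0.61 to 1.28), 24 h MEKi (0.12 with subtraction, -1.16 to 0.39) and the sex difference at 72 h less 24 h (-0.0231 without a filter, -0.61 to 0.95). The last were *Kash5* in the MEKi effect at 72 h less 24 h (-0.29; 0.21 with both edgeR tests, 0.12 with DESeq2, 0.11 with the block, -0.68 to 0.19) and *Spdya* in 24 h FGFRi (0.32 with subtraction).

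Over all genes, 1391 were called in 72 h MEKi, 6252 with the quasi-likelihood test, 4748 with eBayes and 848 with the replicate block. In 24 h MEKi the numbers were 25 by limma, 853 and 556, and in 72 h FGFRi 1, 24 and 86. In the sex comparison at 0 h limma called 457 genes, the quasi-likelihood test 2912 genes and eBayes 2249, with 298 without XY 0 h replicate 3. Low counts limit *Majin* and *Kash5* at 0 h and 24 h.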
